A study of Mus musculus with 8 samples.

Results

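Integrins are the receptors through which cells hold on to the matrix around them, each built from an alpha and a beta subunit, and laminins are the trimeric proteins, of an alpha, a beta and a gamma chain, that form the core of basement membranes. In the pancreas, acinar and duct epithelium rests on laminin through integrins, islet cells meet the basement membrane of the capillaries, and leukocytes use an integrin set of their own to leave vessels. The array held 43 genes whose name begins with Itga, Itgb, Lama, Lamb or Lamc, out of 27962 gene names, and read them with 91 of its 41174 probes. All 43 genes had a probe well above background on 4 or more of the 8 arrays, and each gene was read from its brightest such probe. They fell into 9 epithelial and general integrin subunits, 9 subunits of mesenchymal, muscle and vascular cells, 8 leukocyte subunits, 11 laminin chains and 6 proteins that share the prefix without being integrin subunits. The Itga2 probe was above background on 6 arrays and those of the other 42 genes on all 8. Of the 91 probes, 81 reached the 4 arrays, and just below stood a further probe of Itga4 and one of Itgav, each above background on 3 arrays.

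The samples were whole pancreas of C57BL/6 pups aged 1 week, 4 from Glis3KO2 mice and 4 from wild type (WT) mice, each on 1 single-colour array. Glis3KO2 is the label of a knockout of Glis3, a zinc finger transcription factor, and the labels do not give the deleted part. By its title the series asks what Glis3 does for the development and maturation of beta cells. Values below are log2 signal relative to the 75th percentile of the same array, as they stand for each probe. Probes differ in how brightly they bind, so levels are compared between arrays and not between genes. In RNA of a whole organ, fewer cells of a type and less RNA per cell cannot be told apart.

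Between 31353 and 35613 probes were well above background per array. The arrays came on 2 slides with 1 genotype each, and an effect of the slide cannot be told apart from one of the genotype. Xist, the transcript of the inactive X chromosome, was high on 3 Glis3KO2 arrays and 1 WT array. Glis3KO2 replicates 3 and 4 stood apart on the first principal component, with scores of at least 39.5, against -26.2 to 1.16 for the other 6 arrays. The Glis3 probe was well above background on 0 Glis3KO2 arrays and 3 WT arrays, and whether it lies in the deleted part is not given. Of 11 islet markers 6 fell and 0 rose (limma). Of 9 acinar markers 0 changed (limma, 0 also at an unadjusted p under 0.05), and their summed signal was 2853 to 3789 times the 75th percentile on Glis3KO2 arrays and 3305 to 3903 times on WT arrays. Whether the pups of a genotype shared a litter is not given, and the p-values below rest only on the spread among these arrays.

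None of the 43 genes differed between Glis3KO2 and WT pancreas past an adjusted p of 0.05 (limma, Benjamini-Hochberg over all 33239 tested probes). Over the whole array 85 probes did, which is 0.256%. At an unadjusted p under 0.05, limma gave 4 of the 43 genes, or 9.30%, against 9.00% of all tested probes. Among them were Itga2 and Itga1, lower in Glis3KO2, and Itgb1bp2, higher in Glis3KO2. The groups did not overlap, with Glis3KO2 lower, for Itga2 and Lama4, which is 4.65% of the genes against 3.35% of all tested probes. The Itga2 probe passed the background filter through the WT group, where it is higher. No gene stood apart with Glis3KO2 higher, which 1.85% of all tested probes did. All these shares lay near those of the array.

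The arrays also set limits on what change could have gone unseen. For 40 of the 43 genes the 95% interval of the log2 difference lay within -1 and 1, that is, within a 2-fold change either way. The same held for 30090 of the 33239 tested probes. Such an interval also held for all 11 laminin chains and all 9 mesenchymal, muscle and vascular subunits. The exceptions were Itgb8, with an interval of -0.38 to 2.23, Itgb7, with -1.31 to 0.82, and Itgb2l, with -1.12 to 0.82. For 21 genes the interval lay within -0.50 and 0.50, as it did for 17595 of the 33239 tested probes. The median log2 difference of the 43 genes was 0.030, with 24 positive and 19 negative, against -0.0086 for all tested probes.

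**Figure D1:**
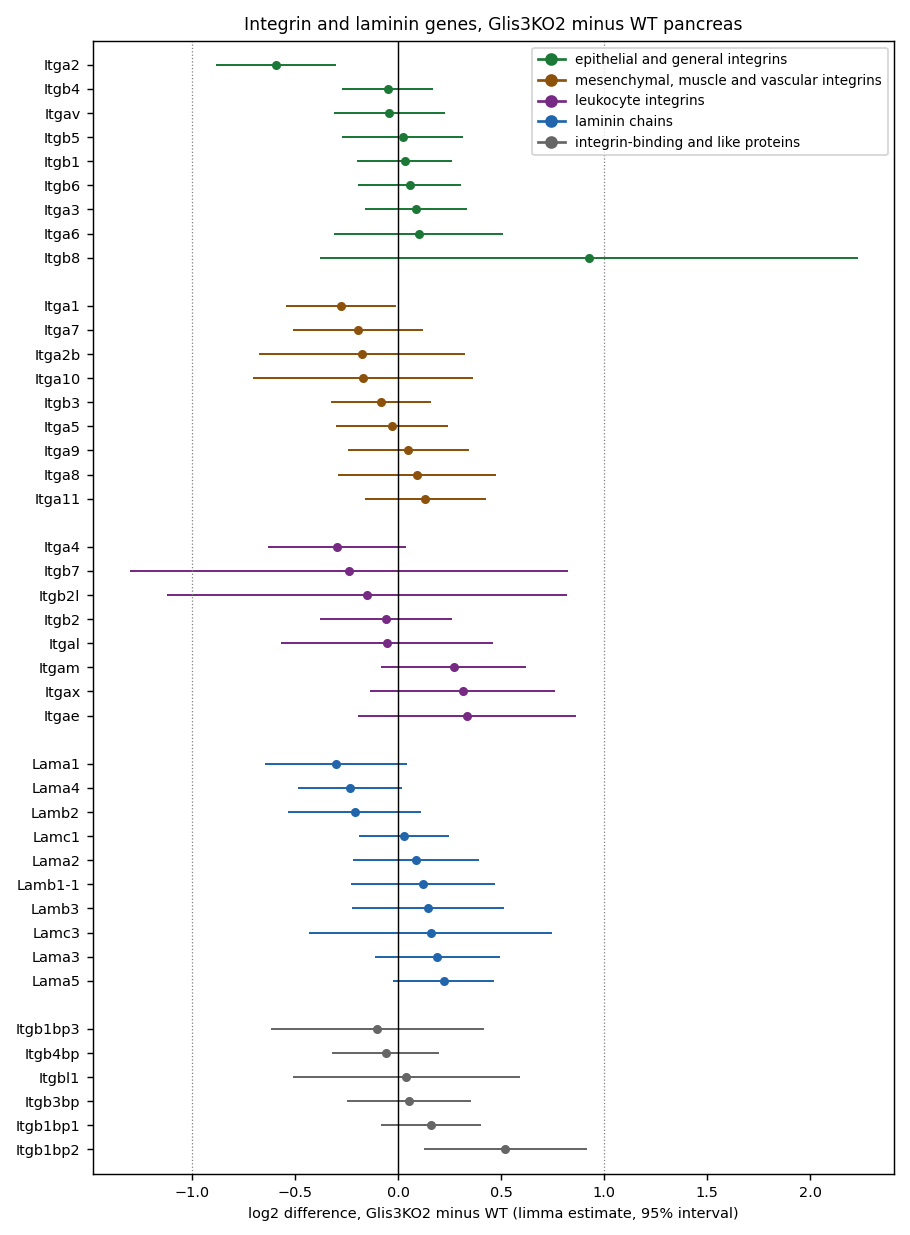
Log2 difference between Glis3KO2 and WT pancreas (horizontal axis) for 42 of the 43 genes (vertical axis), coloured by role, with points for the limma estimate and bars for its 95% interval; dotted lines mark a 2-fold change. Most points sit close to 0 and the intervals lie between the dotted lines, with Itgb8, Itgb7 and Itgb2l as the exceptions.

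Lama4 and Itga1 each had 4 tested probes, and the sequences of 2 of them are shown for each gene because their values are set side by side below. The first Lama4 probe below was the brightest of the gene, and it shares 29 bases, in capitals, with the next. That second probe spans 791 bases of the genome with its 60 bases, so it crosses an exon boundary, as do both Itga1 probes. Positions are those of mouse build mm7 in the array files, and sequences are those of the array design, 5′ to 3′.
Lama4, chr10:38885787-38885846, plus strand: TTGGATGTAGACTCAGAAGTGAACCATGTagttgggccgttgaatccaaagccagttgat
Lama4, chr10:38885025-38885815, plus strand: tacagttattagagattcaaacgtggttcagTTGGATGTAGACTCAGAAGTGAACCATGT
Itga1, chr13:112138677-112140331, minus strand: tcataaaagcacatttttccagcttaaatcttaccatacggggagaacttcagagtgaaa
Itga1, chr13:112202968-112207106, minus strand: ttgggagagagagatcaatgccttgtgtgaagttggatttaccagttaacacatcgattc

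The epithelial laminin receptors did not pass the threshold by any tested probe. Itga6 and Itgb4 pair in hemidesmosomes, the junctions that anchor epithelium to basement membrane. Itga6 read 4.04, 4.07, 4.46 and 4.69 on Glis3KO2 replicates 1 to 4, against 4.27, 4.51, 4.15 and 3.93 on WT replicates 1 to 4 (log2 difference 0.099, SE 0.18, adjusted p = 0.919, limma). Itgb4 read 3.61, 3.52, 3.52 and 3.71 on Glis3KO2 replicates 1 to 4, against 3.62, 3.77, 3.62 and 3.55 on WT replicates 1 to 4 (log2 difference -0.053, SE 0.098, adjusted p = 0.921, limma). In both genes the groups overlapped, and the Itgb4 difference had a 95% interval of -0.27 to 0.17. A further Itgb4 probe that shares 50 of its 60 bases with the brightest gave a log2 difference of 0.0048. The remaining Itgb4 probe, far dimmer, gave -0.19 (interval -0.46 to 0.086, limma adjusted p = 0.705). Itga6 had a dimmer probe, built on another transcript, whose groups did not overlap, at 1.04, 0.92, 0.87 and 0.95 on Glis3KO2 replicates 1 to 4, against 1.18, 1.25, 1.44 and 1.18 on WT replicates 1 to 4. Its log2 difference was -0.32, not past the threshold (limma adjusted p = 0.393), while the remaining Itga6 probe had -0.034.

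Itga3, a laminin receptor of epithelia, and Itgb1, the beta subunit shared by most matrix receptors, also overlapped between the genotypes. Itga3 read -0.26, -0.49, -0.54 and -0.55 on Glis3KO2 replicates 1 to 4, against -0.49, -0.46, -0.71 and -0.52 on WT replicates 1 to 4 (log2 difference 0.086, SE 0.11, adjusted p = 0.873, limma), with 0.028 and 0.19 by its further probes. Itgb1 read 1.63, 1.89, 1.80 and 1.57 on Glis3KO2 replicates 1 to 4, against 1.67, 1.67, 1.68 and 1.75 on WT replicates 1 to 4 (log2 difference 0.030, SE 0.10, adjusted p = 0.963, limma), an interval of -0.20 to 0.26. Itgav, the alpha subunit of receptors for vitronectin and latent TGF-beta, read -0.97, -0.70, -0.80 and -0.98 on Glis3KO2 replicates 1 to 4, against -0.93, -0.59, -0.92 and -0.84 on WT replicates 1 to 4 (log2 difference -0.043, SE 0.12, adjusted p = 0.950, limma). Itgb6, its epithelial partner, read -3.23, -3.42, -3.31 and -3.46 on Glis3KO2 replicates 1 to 4, against -3.61, -3.43, -3.29 and -3.30 on WT replicates 1 to 4 (log2 difference 0.055, SE 0.11, adjusted p = 0.928, limma). In each of these 4 genes the ranges of the groups overlapped. Itgb5, a further partner of Itgav, had a log2 difference of 0.021 (interval -0.27 to 0.32). Across the 9 epithelial and general subunits the median log2 difference was 0.030, with 6 positive and 3 negative. Without Glis3KO2 replicate 2 that median was -0.025, and without Glis3KO2 replicate 4 it was 0.080.

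Itga2 and Itgb8 were the 2 epithelial subunits farthest from 0. Itga2, which pairs with Itgb1 to bind collagen, read -6.09, -6.10, -5.60 and -5.88 on Glis3KO2 replicates 1 to 4, against -5.34, -5.40, -5.26 and -5.29 on WT replicates 1 to 4. All 4 Glis3KO2 arrays lay below all 4 WT arrays, but the probe was dim, above background on 2 Glis3KO2 arrays and 4 WT arrays. Its difference was not past the threshold (log2 difference -0.59, SE 0.13, adjusted p = 0.167, limma), and with normexp background correction it was -0.27. Its interval was -0.89 to -0.30. Only 1 Itga2 probe was tested, and the other was above background on 0 arrays.

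Itgb8, which pairs with Itgav and releases active TGF-beta from its latent form, read 1.30, -0.88, -1.86 and 0.23 on Glis3KO2 replicates 1 to 4, against -0.84, -1.24, -1.56 and -1.26 on WT replicates 1 to 4. Glis3KO2 replicates 1 and 4 were above every WT array, whereas Glis3KO2 replicate 3 was below every WT array. The difference had a wide error (log2 difference 0.93, SE 0.58, adjusted p = 0.691, limma), with -0.30 ± 1.37 in Glis3KO2 and -1.23 ± 0.29 in WT (SD, n = 4 each). It was 0.39 without Glis3KO2 replicate 1 and 1.45 without Glis3KO2 replicate 3. The gene's other tested probe did not follow that pattern, at -3.54, -3.37, -3.16 and -3.31 on Glis3KO2 replicates 1 to 4, against -3.23, -3.51, -3.72 and -3.78 on WT replicates 1 to 4 (log2 difference 0.21, SE 0.15, adjusted p = 0.725, limma).

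**Figure D2:**
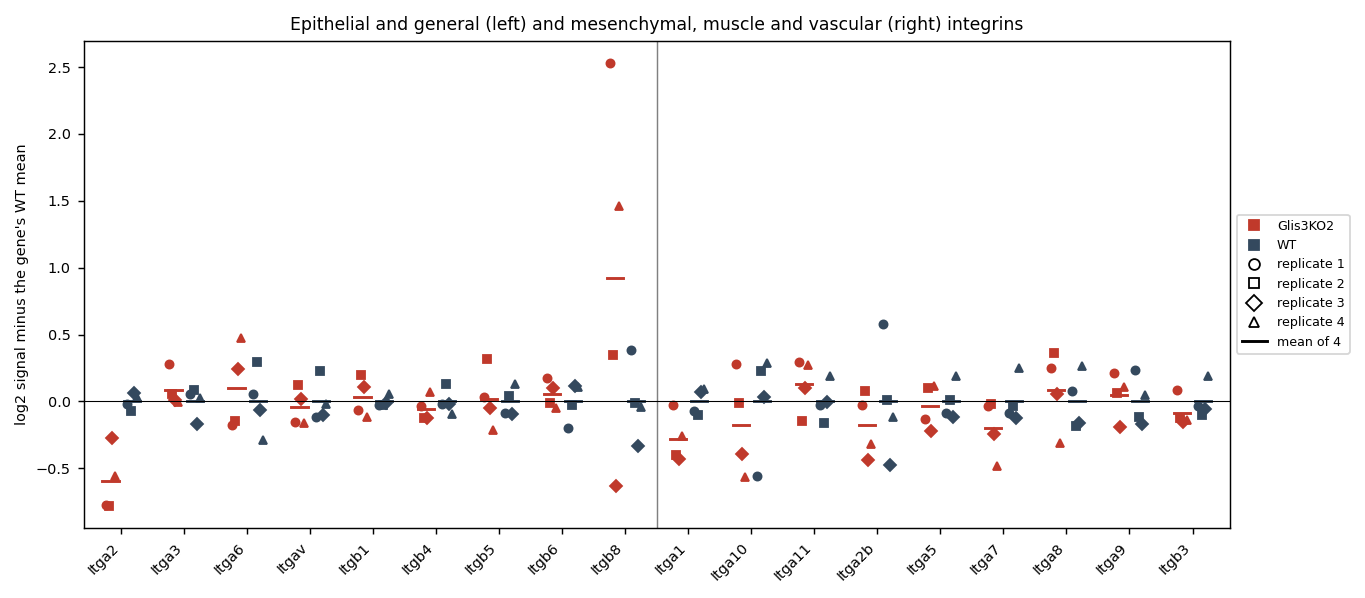
Log2 signal on each array minus the gene's WT mean (vertical axis) for the epithelial and general subunits and the mesenchymal, muscle and vascular subunits, with Glis3KO2 left of WT in each pair, a symbol per replicate and bars for the mean of 4. Itga2 is lower on all 4 Glis3KO2 arrays, Itgb8 is high on Glis3KO2 replicates 1 and 4 only, and the other genes overlap.

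The mesenchymal, muscle and vascular subunits had a median log2 difference of -0.083, with 3 positive and 6 negative of 9. Itga1, a collagen receptor subunit of mesenchymal and endothelial cells, read -0.68, -1.06, -1.08 and -0.92 on Glis3KO2 replicates 1 to 4, against -0.73, -0.76, -0.58 and -0.56 on WT replicates 1 to 4 (log2 difference -0.28, SE 0.12, adjusted p = 0.533, limma). Glis3KO2 replicates 2 to 4 lay below all WT arrays, and replicate 1 lay among them. The 2 Itga1 probes printed above gave log2 differences of -0.27 and -0.43, and the remaining probe gave 0.046, none past the threshold (limma adjusted p of 0.520, 0.469 and 0.944). Itga7, a laminin receptor subunit of muscle, read -0.14, -0.12, -0.34 and -0.59 on Glis3KO2 replicates 1 to 4, against -0.19, -0.14, -0.23 and 0.15 on WT replicates 1 to 4 (log2 difference -0.19, SE 0.14, adjusted p = 0.735, limma). Itga11, a collagen receptor subunit of fibroblasts, read 1.54, 1.11, 1.35 and 1.52 on Glis3KO2 replicates 1 to 4, against 1.22, 1.09, 1.25 and 1.44 on WT replicates 1 to 4 (log2 difference 0.13, SE 0.13, adjusted p = 0.822, limma). In both genes the groups overlapped, and a second Itga7 probe had a log2 difference of -0.035.

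Itgb3, the partner of Itgav and of the platelet subunit Itga2b, read 1.45, 1.24, 1.22 and 1.23 on Glis3KO2 replicates 1 to 4, against 1.34, 1.27, 1.31 and 1.56 on WT replicates 1 to 4 (log2 difference -0.083, SE 0.11, adjusted p = 0.876, limma). Its second probe had a log2 difference of -0.082. Itga2b itself had -0.18, with an interval of -0.68 to 0.32, and of 9 platelet markers 0 changed (limma, 0 also at an unadjusted p under 0.05), with a summed signal of 10.9 to 14.9 on Glis3KO2 arrays and 12.2 to 16.4 on WT arrays, in multiples of the array's 75th percentile. Among the rest, Itga5, the fibronectin receptor subunit, had a log2 difference of -0.032. Itga8, a mesenchymal receptor for nephronectin, had 0.089, and Itga9, which binds tenascin, had 0.048. Itga10, a collagen receptor subunit of cartilage, had -0.17, with an interval of -0.71 to 0.36.

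Several leukocyte integrins spread widely among the WT arrays, with WT replicate 1 on top. The 8 subunits had a median log2 difference of -0.057, with 3 positive and 5 negative. Itgb2, the beta subunit of the leukocyte family, read -0.096, -0.31, -0.19 and -0.31 on Glis3KO2 replicates 1 to 4, against 0.21, -0.31, -0.37 and -0.20 on WT replicates 1 to 4 (log2 difference -0.059, SE 0.14, adjusted p = 0.942, limma). Itgal, its lymphocyte partner, read -1.66, -1.89, -1.49 and -1.33 on Glis3KO2 replicates 1 to 4, against -0.89, -1.99, -1.68 and -1.59 on WT replicates 1 to 4 (log2 difference -0.055, SE 0.23, adjusted p = 0.970, limma). By these probes WT replicate 1 was the highest of the 8 arrays for both genes, and the other 7 arrays overlapped. A second Itgal probe was highest on Glis3KO2 replicate 1, at -1.39, and read -1.65 on WT replicate 1. Its log2 difference was 0.17 (limma adjusted p = 0.851).

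The same array was far above the rest for Itgb7, which pairs with Itga4 or Itgae on gut-homing and intraepithelial lymphocytes. Itgb7 read -0.58, -0.83, -1.08 and -0.75 on Glis3KO2 replicates 1 to 4, against 0.93, -1.32, -1.51 and -0.37 on WT replicates 1 to 4 (log2 difference -0.24, SE 0.47, adjusted p = 0.926, limma), and without WT replicate 1 its log2 difference was 0.26. Itgb2l, a gene resembling Itgb2, read -4.26, -4.46, -4.58 and -4.25 on Glis3KO2 replicates 1 to 4, against -2.77, -4.62, -5.14 and -4.41 on WT replicates 1 to 4 (log2 difference -0.15, SE 0.43, adjusted p = 0.954, limma), and without WT replicate 1 its log2 difference was 0.34. Neither gene passed the threshold in either setting. Without that array the median of the 8 subunits was 0.26.

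Markers of leukocytes moved with this array. Ptprc, the pan-leukocyte antigen, read -0.70, -0.77, -0.66 and -0.27 on Glis3KO2 replicates 1 to 4, against 1.23, -1.13, -0.98 and -0.29 on WT replicates 1 to 4. Coro1a, an actin-binding protein of leukocytes, read 1.52, 1.51, 1.19 and 1.58 on Glis3KO2 replicates 1 to 4, against 3.16, 1.16, 0.79 and 1.70 on WT replicates 1 to 4. Cd3g, a subunit of the T cell receptor complex, read -2.23, -2.51, -3.05 and -2.67 on Glis3KO2 replicates 1 to 4, against -0.69, -2.76, -2.69 and -2.15 on WT replicates 1 to 4. In all 3 genes WT replicate 1 was the highest array. Cd3e, a further subunit of that complex, did not follow, at 0.61, 0.36, 0.66 and 1.24 on Glis3KO2 replicates 1 to 4, against 0.48, 0.50, 0.38 and 0.38 on WT replicates 1 to 4. Csf1r, the receptor of macrophage growth factor, read 1.28, 1.72, 1.31 and 1.13 on Glis3KO2 replicates 1 to 4, against 1.47, 1.19, 1.23 and 1.54 on WT replicates 1 to 4, with WT replicate 1 inside the range of the others. Of 13 leukocyte markers 0 changed between the genotypes (limma, 0 also at an unadjusted p under 0.05), and 4 were positive and 9 negative. Their summed signal was 44.3 to 62.5 on Glis3KO2 arrays and 37.8 to 78.6 on WT arrays, in multiples of the array's 75th percentile. The part of leukocyte content in the integrin values was not tested.

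The brightest probes of the myeloid alpha subunits gave positive log2 differences. Itgam, which pairs with Itgb2 on macrophages and neutrophils, read -3.27, -3.53, -3.36 and -3.78 on Glis3KO2 replicates 1 to 4, against -3.76, -3.77, -4.03 and -3.45 on WT replicates 1 to 4 (log2 difference 0.27, SE 0.16, adjusted p = 0.674, limma). Itgax, a subunit of dendritic cells and macrophages, read -1.26, -1.50, -1.72 and -2.12 on Glis3KO2 replicates 1 to 4, against -1.69, -1.86, -2.01 and -2.29 on WT replicates 1 to 4 (log2 difference 0.31, SE 0.20, adjusted p = 0.700, limma). In neither gene did all arrays of the groups stand apart. Their dimmer probes had negative log2 differences, -0.085 for Itgam and -0.34 for Itgax. That Itgax probe read -2.42 on WT replicate 1 and -4.93 to -3.63 on the other 7 arrays, while on the brightest probe WT replicate 1 lay among the others. Itga4, the partner of Itgb7 and Itgb1 on lymphocytes, read -1.60, -1.67, -1.64 and -1.79 on Glis3KO2 replicates 1 to 4, against -1.26, -1.59, -1.64 and -1.02 on WT replicates 1 to 4 (log2 difference -0.30, SE 0.15, adjusted p = 0.606, limma). WT replicates 1, 2 and 4 were above all Glis3KO2 arrays, replicate 2 by a narrow gap, and WT replicate 3 was among them. A further probe above background on all 8 arrays had a log2 difference of -0.33, and the 2 above background on 2 Glis3KO2 arrays and 4 WT arrays had -0.52 and 0.20. Itgae, the partner of Itgb7 that binds E-cadherin, had 0.33 (interval -0.20 to 0.86), and -0.18 by its second probe.

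**Figure D3:**
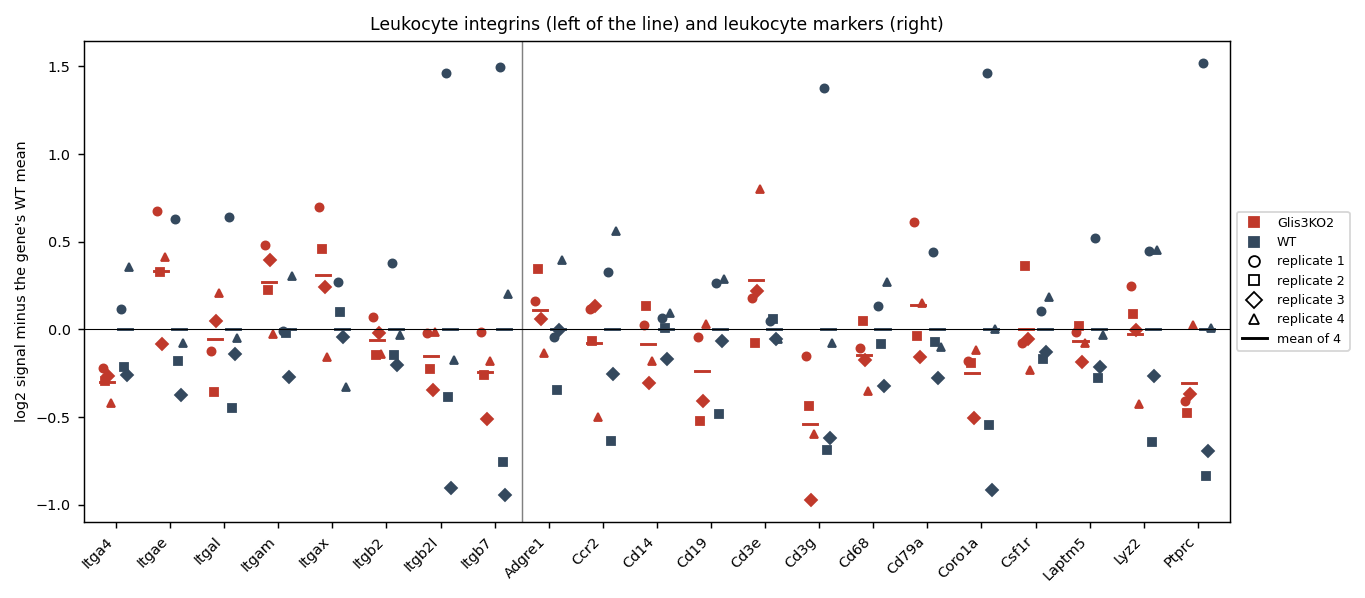
Log2 signal on each array minus the gene's WT mean (vertical axis) for the 8 leukocyte integrin subunits and the 13 leukocyte markers, with Glis3KO2 left of WT in each pair, a symbol per replicate and bars for the mean of 4. WT replicate 1 stands above the other arrays for Itgb7, Itgb2l, Ptprc, Coro1a and Cd3g.

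Of the 11 laminin chains 8 had a positive and 3 a negative log2 difference, with a median of 0.12, and none changed. Lama3 and Lamb3 are chains of the laminin that anchors epithelium. Lama3 read -2.58, -2.34, -2.28 and -2.48 on Glis3KO2 replicates 1 to 4, against -2.75, -2.85, -2.50 and -2.35 on WT replicates 1 to 4 (log2 difference 0.19, SE 0.14, adjusted p = 0.734, limma), with 0.18 by its other probe, and its groups overlapped. Lamb3 had a log2 difference of 0.14 (interval -0.23 to 0.51).

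Lama4, the alpha chain of vascular basement membranes, was lower on every Glis3KO2 array than on any WT array, by a narrow gap. It read 2.06, 2.08, 2.11 and 1.90 on Glis3KO2 replicates 1 to 4, against 2.20, 2.13, 2.26 and 2.50 on WT replicates 1 to 4 (log2 difference -0.23, SE 0.11, adjusted p = 0.585, limma). The overlapping probe printed above read 1.16, 1.25, 1.28 and 1.16 on Glis3KO2 replicates 1 to 4, against 1.41, 1.33, 1.46 and 1.48 on WT replicates 1 to 4 (log2 difference -0.21, SE 0.090, adjusted p = 0.538, limma), and its groups were likewise apart. Another probe gave -0.13, and its groups overlapped. A dimmer one, built on another transcript, gave -0.68 (limma adjusted p = 0.196). The groups of that dimmer probe did not overlap, and its interval of -1.03 to -0.33 reached past a 2-fold change. All 4 Lama4 probes were negative and none passed the threshold. Endothelial markers leaned the same way beside it, with 9 of 10 negative, against 17251 of the 33239 tested probes. Their median was -0.17, and 0 passed the threshold (limma). At an unadjusted p under 0.05 stood 2 of the 10, or 20%, against 9.00% over the array (limma). Both were receptors of VEGF, Flt1 (log2 difference -0.44, SE 0.11, adjusted p = 0.265, limma) and Kdr (log2 difference -0.34, SE 0.10, adjusted p = 0.372, limma). The summed endothelial signal was 32.7 to 42.1 on Glis3KO2 arrays and 40.5 to 47.7 on WT arrays, and its part in the Lama4 values was not tested. Without Glis3KO2 replicates 3 and 4 the Lama4 log2 difference was -0.20, and without WT replicate 4 it was -0.16.

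Lama5, the widespread alpha chain of epithelial and vascular basement membranes, read 1.97, 2.26, 2.22 and 2.03 on Glis3KO2 replicates 1 to 4, against 1.81, 1.93, 2.03 and 1.82 on WT replicates 1 to 4 (log2 difference 0.22, SE 0.11, adjusted p = 0.608, limma). Lama1, the alpha chain of early embryonic basement membranes, read -3.75, -4.01, -3.84 and -3.77 on Glis3KO2 replicates 1 to 4, against -3.57, -3.94, -3.28 and -3.37 on WT replicates 1 to 4 (log2 difference -0.30, SE 0.15, adjusted p = 0.618, limma). WT replicate 3 lay among the Glis3KO2 arrays for Lama5, and WT replicate 2 did for Lama1. Lama2, the chain of muscle and nerve, had a log2 difference of 0.086 (interval -0.22 to 0.39).

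The beta and gamma chains that most trimers share did not pass the threshold. Lamc1, the common gamma chain, read 3.87, 4.06, 4.07 and 4.17 on Glis3KO2 replicates 1 to 4, against 4.03, 4.04, 3.97 and 4.01 on WT replicates 1 to 4 (log2 difference 0.029, SE 0.097, adjusted p = 0.962, limma), with an interval of -0.19 to 0.25. Lamb1, listed as Lamb1-1, read 2.36, 2.92, 2.92 and 2.60 on Glis3KO2 replicates 1 to 4, against 2.42, 2.45, 2.79 and 2.66 on WT replicates 1 to 4 (log2 difference 0.12, SE 0.16, adjusted p = 0.875, limma). Lamb2, the beta chain of mature basement membranes, read 2.17, 2.37, 1.99 and 1.90 on Glis3KO2 replicates 1 to 4, against 2.38, 2.38, 2.03 and 2.49 on WT replicates 1 to 4 (log2 difference -0.21, SE 0.14, adjusted p = 0.714, limma). In these 3 chains the groups overlapped. Lamc3, a gamma chain of nerve and other tissues, had 0.16 (interval -0.43 to 0.75).

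**Figure D4:**
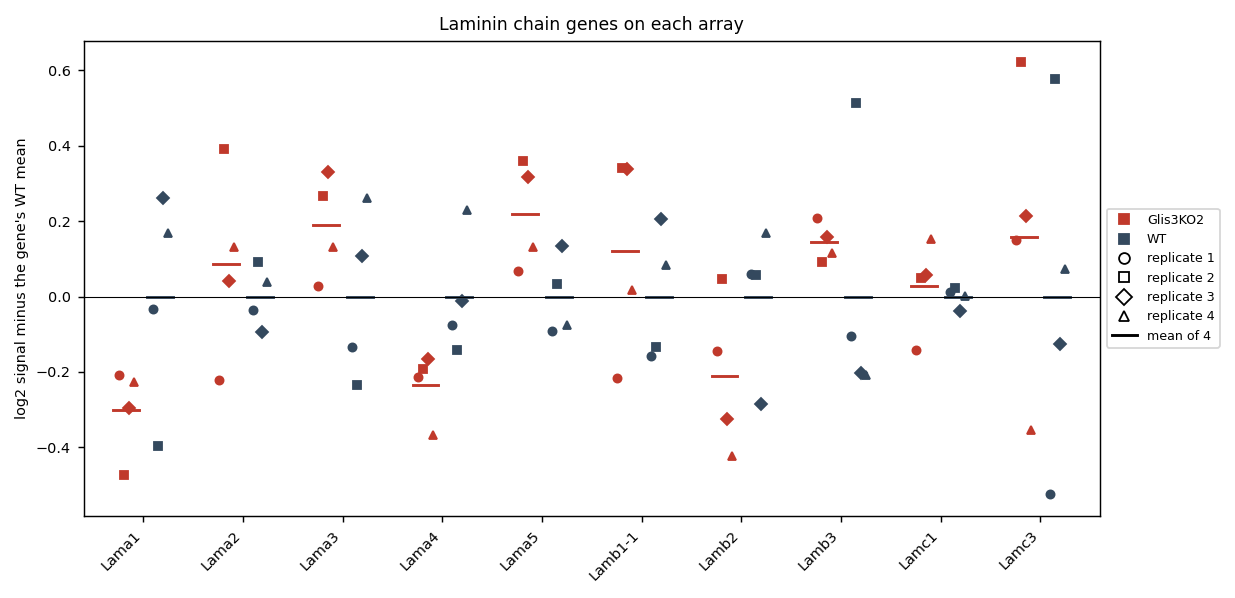
Log2 signal on each array minus the gene's WT mean (vertical axis) for laminin chains, with Glis3KO2 left of WT in each pair, a symbol per replicate and bars for the mean of 4. Lama4 is the one plotted chain whose groups do not overlap, with all 4 Glis3KO2 arrays below the WT arrays.

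The 6 proteins with an integrin prefix that are not subunits had a median log2 difference of 0.045. Itgb1bp2, a muscle protein that binds the Itgb1 product, read -3.94, -4.59, -4.29 and -3.99 on Glis3KO2 replicates 1 to 4, against -5.01, -4.73, -4.69 and -4.45 on WT replicates 1 to 4 (log2 difference 0.52, SE 0.17, adjusted p = 0.427, limma). Glis3KO2 replicates 1, 3 and 4 were above all WT arrays and replicate 2 was not, and with normexp background correction the log2 difference was 0.048. Itgb1bp2 lies on the X chromosome. Glis3KO2 replicates 1, 3 and 4 and WT replicate 4, the arrays high in Xist, read above all the others. The part of Xist status in these values was not tested. Itgb1bp1, which binds the tail of the Itgb1 product and holds it inactive, read 1.16, 1.08, 1.37 and 1.45 on Glis3KO2 replicates 1 to 4, against 1.08, 1.11, 1.15 and 1.09 on WT replicates 1 to 4 (log2 difference 0.16, SE 0.11, adjusted p = 0.718, limma). Itgb4bp, now Eif6, a factor of ribosome assembly, read 2.92, 2.94, 2.77 and 2.98 on Glis3KO2 replicates 1 to 4, against 3.05, 3.16, 2.77 and 2.87 on WT replicates 1 to 4 (log2 difference -0.062, SE 0.11, adjusted p = 0.920, limma). In both genes the groups overlapped, and the second Itgb1bp1 probe had a log2 difference of -0.072. Itgb3bp, a centromere protein, had a log2 difference of 0.050. Itgb1bp3, now Nmrk2, a nicotinamide riboside kinase, had -0.10, and Itgbl1, a secreted protein with integrin-like repeats, had 0.039.

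Of the 43 genes 23 had more than 1 tested probe, and in 7 of them all probes had the same sign. Among the 7 were Itgb3, Lama3, Itga3, Itga7, Lama4 and Itgb8. The probes of a gene lay farthest apart for Itga4, by 0.73, and Itgb8, by 0.71, and closest for Itgb3 and Lama3. None of the 81 tested probes passed the threshold (limma), and the smallest adjusted p was 0.167, for Itga2. Of the 81, 10 had an unadjusted p under 0.05, or 12.3% against 9.00% over the array, and 8 of the 10 were lower in Glis3KO2 (limma). In 6 of the 81, or 7.41%, all Glis3KO2 arrays lay below all WT arrays, against 3.35% over the array. Both counts include an Itga2 and an Itga4 probe above background on 2 Glis3KO2 arrays and 4 WT arrays. These passed the filter through the WT group, where they are higher. Lama4 has more than 1 probe in each count, and Itga1 has more than 1 in the count by unadjusted p. Probes of a gene share their transcripts, so these counts are not of separate genes.

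**Figure D5:**
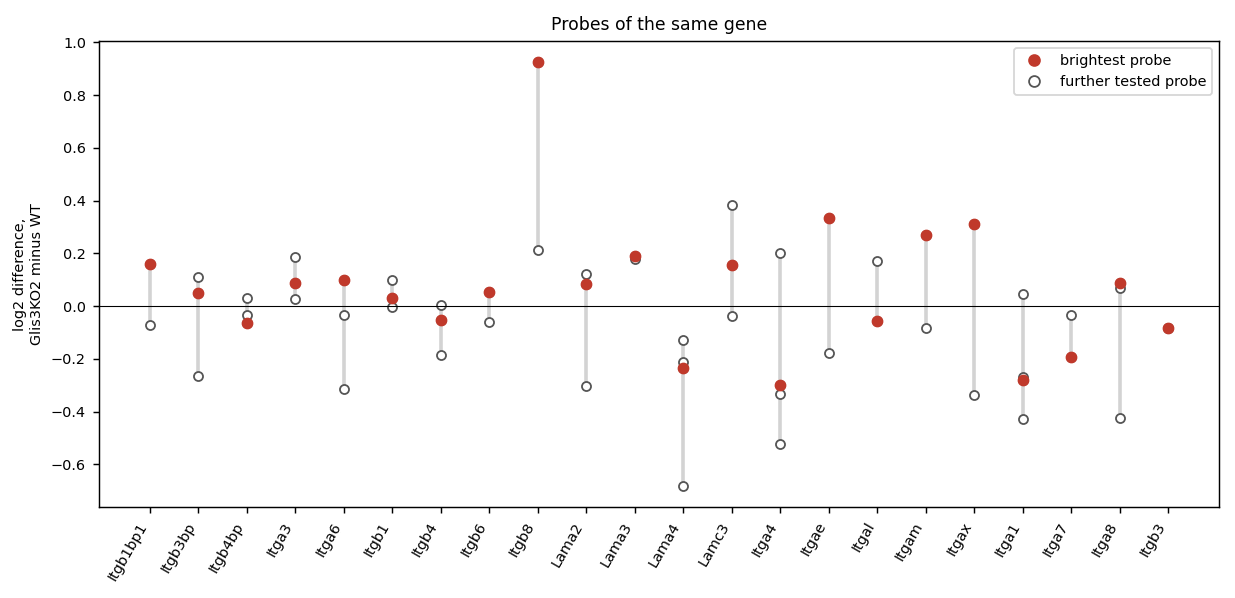
Log2 difference between Glis3KO2 and WT (vertical axis) of each tested probe, for 22 of the 23 genes with more than 1, with the brightest probe filled and further probes open. Probes of Itgb3 and Lama3 nearly coincide, those of Itga4 and Itgax spread to both sides of 0, and both Itgb8 probes lie above it.

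Genes that work beside integrins and laminins were read gene by gene in 3 lists, and no list was tested as a whole. Of 27 genes of basement membranes and laminin receptors, among them the collagen IV chains, nidogens and agrin, 0 passed the threshold (limma). At an unadjusted p under 0.05 limma gave 2 of the 27, or 7.41%, against 9.00% of all tested probes. The median log2 difference of the 27 was 0.063, with 17 positive and 10 negative. Fbln1, a fibulin of basement membranes and elastic fibres, read 1.29, 1.21, 1.20 and 1.20 on Glis3KO2 replicates 1 to 4, against 0.95, 0.83, 0.82 and 1.05 on WT replicates 1 to 4 (log2 difference 0.31, SE 0.095, adjusted p = 0.362, limma). Tinagl1, a matrix protein related to a nephritis antigen, read -0.21, -0.10, -0.49 and -0.34 on Glis3KO2 replicates 1 to 4, against 0.34, -0.0056, 0.010 and 0.31 on WT replicates 1 to 4 (log2 difference -0.45, SE 0.13, adjusted p = 0.340, limma). In both genes the groups did not overlap, Fbln1 being higher and Tinagl1 lower on Glis3KO2 arrays.

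Among 29 genes of the adhesion complex behind integrins, such as talins, kindlins and focal adhesion kinase, 0 passed the threshold (limma). Their median log2 difference was -0.059. At an unadjusted p under 0.05 stood 1 of the 29, or 3.45%, against 9.00% over the array (limma). Tns1, a tensin that links integrins to actin, had groups that did not overlap, with 3.55 ± 0.074 in Glis3KO2 and 3.83 ± 0.080 in WT (SD, n = 4 each; log2 difference -0.28, SE 0.093, adjusted p = 0.426, limma). Tln1, the talin that activates integrins, stood apart by less, with a log2 difference of 0.11 (limma adjusted p = 0.760), and was named after its values were seen. Ptk2b, a kinase related to focal adhesion kinase, had 0.17 (limma adjusted p = 0.691).

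Of 20 integrin ligands outside the basement membrane 0 passed the threshold and the median log2 difference was -0.0073 (limma). An unadjusted p under 0.05 was reached by 2 of the 20, or 10%, against 9.00% over the array (limma). Fgb, a fibrinogen chain, was lower on all 4 Glis3KO2 arrays than on any WT array, with -4.63 ± 0.49 in Glis3KO2 and -3.89 ± 0.20 in WT (SD, n = 4 each; log2 difference -0.74, SE 0.23, adjusted p = 0.376, limma). Its probe was dim, above background on 7 arrays, and the gap between the groups was narrow. The other fibrinogen chains had log2 differences of 0.36 for Fga and -0.29 for Fgg, the latter above background on 4 arrays. Emilin1, an elastic fibre protein bound by receptors with Itga4 or Itga9, had 0.30 (limma adjusted p = 0.477). Of 11 mesenchymal markers 10 were positive, with a median of 0.12, and of 10 duct markers 6 were, with a median of 0.062. In either list 0 passed the threshold and 1 had an unadjusted p under 0.05 (limma). The mesenchymal one was Pdgfra, higher in Glis3KO2 (log2 difference 0.35). The duct one was Sox9, lower in Glis3KO2 (log2 difference -0.38), with groups that did not overlap.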

How the data were processed

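Total RNA of 8 pancreas samples was labelled with Cy3 from 500 ng, per the labels' protocols, and each array was read with Agilent Feature Extraction 9.5.3.1, per the file headers (9.5 per the submitters' processing notes). The deposited values are spot intensity on a linear scale, background-subtracted and detrended but not scaled between arrays, per the file headers. All 45018 values per array in the deposited series table equal these, within a relative tolerance of 1e-06.

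On each array 56 to 130 spots with an outlier flag were dropped, and 0 spots of these genes were saturated. The array's 75th percentile, taken over its 43379 gene spots, was subtracted on the log2 scale, and spots of a probe were averaged. Probes well above background on at least 4 of 8 arrays, 33239 in all, were fitted with limma 3.58.1 in R 4.3.3 (lmFit and eBayes, 2-sided, genotype as sole term), with Benjamini-Hochberg adjustment over all of them. The fit was tested on simulated data. Scaling hides a change that most genes share. Current symbols came from RefSeq, whose table held 22951 of the 25510 RefSeq accessions on the array.

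The values of 1 of the 43 genes are not reported here, and it stays in the counts. The members, lists and tests were chosen with earlier results of these data known. Values per array are given for the 3 genes with the smallest unadjusted p in each role, the one with the brightest probe, and a fixed set of subunits and chains. Itgb7 and Itgb2l, with leukocyte markers beside them, were added after their values were seen. From the pathway lists the 2 genes with the smallest p are given. Alternatives were normexp background (offset 50), quantile or median scaling, other filters on dim probes, the series table, a replicate block, trend and robust eBayes, array weights, the mean of a gene's probes, and leaving out arrays.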

Additional observations from a re-analysis of the deposited data

Results flagged for a closer look

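In each gene and genotype, 86 sets of 4 arrays in all, the array farthest from the others was compared with the spread of the set by Dixon's ratio. Its 95% critical value was exceeded in 4 sets. Chance alone flags about 1 set in 20. Itgb3 read 1.45 on Glis3KO2 replicate 1 and 1.22 to 1.24 on the other Glis3KO2 arrays. Itgb1 read 1.75 on WT replicate 4 and 1.67 to 1.68 on the other WT arrays. Lamb3 read 0.53 on WT replicate 2 and -0.19 to -0.08 on the other WT arrays. Itgbl1 read -4.73 on WT replicate 4 and -5.43 to -5.36 on the other WT arrays.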

How the results depend on the processing

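Under all 19 alternatives 0 of the 43 genes passed the threshold in either direction, with adjusted p no lower than 0.108 (Itga2, without Glis3KO2 replicate 3). Over the whole array the calls numbered 11 without Glis3KO2 replicates 3 and 4, 35 to 96 without 1 array in turn, 51 with no filter on dim probes and 143 with trend and robust eBayes, against 85. Requiring all 8 arrays above background left no value for Itga2. Without 1 array in turn the median log2 difference ranged from -0.016 to 0.049 for the 43 genes, -0.025 to 0.080 for epithelial and general subunits, -0.14 to -0.020 for mesenchymal, muscle and vascular subunits, -0.16 to 0.26 for leukocyte subunits (the highest without WT replicate 1), 0.022 to 0.16 for laminin chains and -0.013 to 0.11 for the prefix-sharing proteins. With the mean of a gene's probes the median of the 43 genes was -0.022, and Itgax had -0.012, against 0.31 by its brightest probe, since that mean holds a second probe of opposite sign. Of 816 values of single genes under the alternatives 47, in 22 genes, had the opposite sign, with limma adjusted p of 0.693 or more. The other dim-probe filters, the series table, the replicate block, and trend and robust eBayes leave a log2 difference as it was. Values under these settings could not change sign. In 46 of the 47 the value as reported lay within 1 SE of 0, Itgax being the exception. Without 1 array in turn, the log2 difference spanned 0 in these genes, at -0.0076 to 0.13 for Itga9, -0.16 to 0.21 for Itgbl1, -0.025 to 0.080 for Itgb1, -0.078 to 0.10 for Itgb5, -0.016 to 0.19 for Lama2, -0.21 to 0.16 for Itgal, -0.0024 to 0.22 for Itga8, -0.037 to 0.12 for Itgb3bp, -0.081 to 0.031 for Itga5, -0.28 to 0.11 for Itgb1bp3, -0.025 to 0.20 for Itga6, -0.012 to 0.086 for Lamc1, -0.012 to 0.095 for Itgb6, -0.017 to 0.35 for Lamc3, -0.13 to 0.067 for Itgb2, -0.45 to 0.34 for Itgb2l, -0.56 to 0.26 for Itgb7, -0.34 to 0.017 for Itga2b, -0.13 to 0.0027 for Itgb4bp and -0.099 to 0.033 for Itgav. With normexp background correction, the log2 difference was -0.11 for Itgbl1 and -0.019 for Itgb6. With quantile scaling, the log2 difference was 0.0015 for Itgb1bp3 and -0.0088 for Itgb5. With array weights, the log2 difference was -0.016 for Itga9. With the mean of a gene's probes, the log2 difference was -0.034 for Itgb3bp, -0.083 for Itga6, -0.0018 for Itgb6, -0.032 for Lama2, 0.058 for Itgal and -0.088 for Itga8. Without Glis3KO2 replicates 3 and 4, the log2 difference was 0.24 for Itgb1bp3, -0.12 for Itgb3bp, -0.16 for Itga6, -0.047 for Lamc1, 0.14 for Itga10 and 0.025 for Itga2b. The cause of these changes was not tested. Samples of the 2 genotypes with the same replicate number had correlations of -0.037 to 0.24 in their deviations over all probes. For Glis3KO2 replicates 2 and 3 the WT sample of the same number correlated best, and for replicates 1 and 4 another did. Such correlations cannot show whether the samples were paired. With the replicate block 0 of the 43 genes and 15 probes of the array passed the threshold. The median of the 43 genes was 0.030, as the block leaves each log2 difference unchanged. Slide could not be a block. The number of arrays, 4 per genotype, limits the precision of all values.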

Other observations

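Some ligands of leukocyte integrins, described here after their values were seen, also spread widely among the WT arrays. Vcam1, the endothelial ligand of the Itga4 product, read -0.12, -0.16, -0.19 and -0.15 on Glis3KO2 replicates 1 to 4, against 0.48, -0.43, -0.55 and -0.0069 on WT replicates 1 to 4 (log2 difference -0.028, SE 0.21, adjusted p = 0.986, limma). Icam1, the ligand of the Itgal and Itgb2 pair, read 0.36, 0.63, 0.41 and 0.63 on Glis3KO2 replicates 1 to 4, against 0.96, 0.37, 0.13 and 0.58 on WT replicates 1 to 4 (log2 difference -0.0037, SE 0.18, adjusted p = 0.998, limma). Both were highest on WT replicate 1 and lowest on WT replicate 3, and the 4 Glis3KO2 arrays lay between. Madcam1, the ligand of the Itga4 and Itgb7 pair in gut vessels, had a log2 difference of -0.32 (limma adjusted p = 0.702), with WT replicates 1 and 4 above the other 6 arrays. Icam2, a further ligand of the list, differed from Icam1. It was highest on WT replicate 4, at 2.72, against 2.59 on WT replicate 1, and lowest on Glis3KO2 replicate 3, at 2.09. Its log2 difference was -0.21 (limma adjusted p = 0.718).

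Cck, which encodes the peptide cholecystokinin, read 1.65, -0.95, -0.63 and 1.81 on Glis3KO2 replicates 1 to 4, against -3.99, -3.99, -4.20 and -3.70 on WT replicates 1 to 4 (log2 difference 4.44, SE 0.61, adjusted p = 0.0282, limma), and the Glis3KO2 arrays high in Cck, replicates 1 and 4, were those high in the brightest Itgb8 probe. This pair of genes was noticed in the data, and no test of a link was made.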
